A study of Homo sapiens with 5 samples.

Results

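The 8 genes described here, SLIT2, ROBO1, EFNA1, EFNB2, EPHA7, EPHB4, GAP43 and NEFL, encode axon guidance ligands and receptors, a growth cone protein and a neurofilament subunit. They were taken by gene symbol from a table of reads at poly(A) sites that names 31173 genes, and all 8 were found. They were selected on results of these same libraries. Which values were used is not recorded, so all comparisons are treated as used; the poly(A) site use of SLIT2, EFNA1, EPHA7 and NEFL was among the results known. Member values are therefore given as a description with no p-value. Where genes called over a longer list are counted below by edgeR's adjusted p, the members among them are named. The counts outside the members are given too. Counts by unadjusted p, by DESeq2 or under other settings include the members. Nothing is read from the members' calls. The libraries came from HEK293T, a transformed human embryonic kidney line. There was 1 library of HEK293T itself as the control, 2 of CFIm59 knockout (KO) lines (gene CPSF7) and 2 of CFIm68 KO lines (gene CPSF6). The KO lines were made in HEK293T with CRISPR/Cas9, and all cells were cultured in 5% serum. The labels call the lines of a genotype different cell lines. The sources used here do not give the exon that was cut, or say whether each line is a single clone. Reads mark the 3′ ends of polyadenylated RNA, so 1 read stands for 1 sequenced 3′ end whatever the length of the transcript. SD values below are over the 2 lines of a genotype, and intervals of the single control library cover counting error only.

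Slit proteins are secreted ligands that repel growing axons through Robo receptors. Ephrins are membrane-bound ligands of the Eph receptor tyrosine kinases, with A-type ephrins held by a lipid anchor and B-type ephrins spanning the membrane, and both families steer axons and keep cell populations apart. GAP43 is a membrane-associated protein of growth cones, and NEFL is the light subunit of the neurofilaments that fill axons. HEK293 cells are not neurons, but lines of this origin are known to express some neuronal genes. Cleavage factor Im (CFIm), to which CFIm59 and CFIm68 belong, takes part in choosing where a pre-mRNA is cut and polyadenylated. A gene with several poly(A) sites in its last exon makes mRNAs with the same protein and different 3′ untranslated ends, whereas cleavage inside an intron ends the RNA before the later exons.

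The libraries held 1673687 to 2924266 reads. CPSF6, the gene of CFIm68, stood at 120 CPM (read counts scaled by edgeR's TMM factors to a common library total) in control cells, at 141 and 143 CPM in the CFIm59 KO lines and at 48.0 and 45.7 CPM in the CFIm68 KO lines, on the side its label gives. CPSF7 stood at 59.8 CPM in control cells and 68.4 and 55.5 CPM in the CFIm59 KO lines, so 3′ end reads do not check that label. In the CFIm68 KO lines CPSF7 stood at 128 and 204 CPM. Markers of neurons gave reads for 7 of the 8 listed in the table, and 2 of them, SYT1 and GAD1, averaged 20 or more reads per library. ELAVL4 was at 0 in all libraries and SYN1 had 1 read in all. The summed level of the neuron markers was 29.3 CPM in control cells, 23.4 and 41.8 CPM in the CFIm59 KO lines and 45.5 and 34.2 CPM in the CFIm68 KO lines. Markers of embryonic kidney epithelium gave reads for 10 of 10, and 5 of them averaged 20 or more reads per library. Their summed levels were 125 CPM in control cells, 204 and 135 CPM in the CFIm59 KO lines and 224 and 225 CPM in the CFIm68 KO lines. EPCAM alone stood at 48.0 and 10.4 CPM in the CFIm59 KO lines. Fibroblast markers summed to between 9.01 and 19.1 CPM with COL1A2 at 0, blood markers to at most 5.77 CPM and endothelial markers to at most 1.74 CPM. The part of other cell states in the differences below was not tested. In bulk RNA, fewer cells with a transcript and less of it per cell cannot be told apart.

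**Figure D1:**
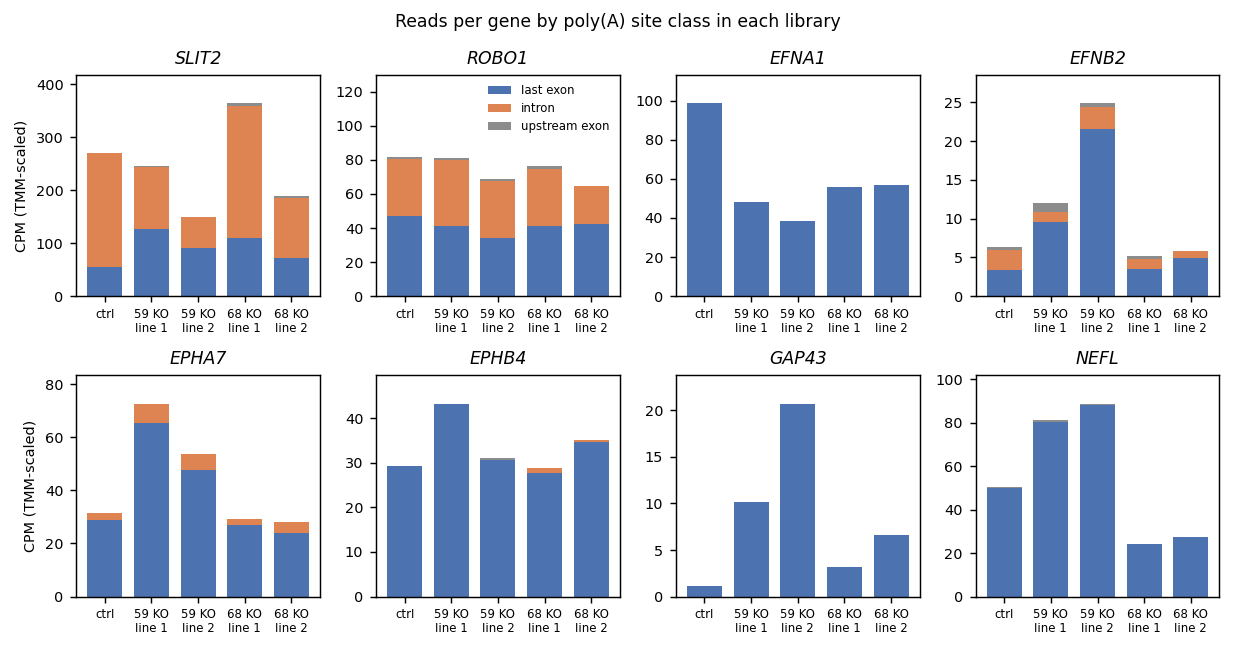
Reads of the 8 genes in each library, in TMM-scaled CPM (y axis, linear from 0, its own scale per gene), with bars divided by the class of poly(A) site; ctrl is the control and 59 KO and 68 KO are the KO lines of CFIm59 and CFIm68. SLIT2 and ROBO1 had many reads at intron sites, EPHA7, EFNB2, GAP43 and NEFL were highest in the CFIm59 KO lines, and the 5 libraries lay between 64.8 and 81.6 CPM for ROBO1 and between 28.8 and 43.2 CPM for EPHB4.

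SLIT2, the ligand of ROBO1, was the gene with most intron reads among the 8. Its 3′ end reads lay mostly in introns in the control and mostly in the last exon in the CFIm59 knockout. The table listed 250 sites for it on the plus strand of chromosome 4 (hg19). Of these, 1 site at 20395860 is shared with SLIT2-IT1, under which its reads stood, 1 in control cells and 1 in CFIm68 KO line 2. The other 249 sites, between 20258294 and 20626407, held all reads given here. Gene sums were 720 reads in control cells, 408 and 362 in the CFIm59 KO lines and 1047 and 427 in the CFIm68 KO lines. These were 271 CPM in control cells, 245 and 150 CPM in the CFIm59 KO lines and 364 and 190 CPM in the CFIm68 KO lines. The CFIm68 KO lines thus stood on either side of the control, and the lines of a genotype lay far apart. The difference in gene sum from the control was log2 -0.46 (SE 0.27) in the CFIm59 knockout, or -0.84 without line 1 and -0.14 without line 2. In the CFIm68 knockout it was log2 0.04 (SE 0.28), or -0.51 without line 1 and 0.43 without line 2.

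By class, intron sites held 79.3% of SLIT2 reads in control cells (Wilson 95% interval 76.2 to 82.1). They held 48.0 and 39.5% in the CFIm59 KO lines (43.8 ± 6.04%, SD, n = 2) and 68.1 and 59.7% in the CFIm68 KO lines (63.9 ± 5.93%). All 4 KO lines lay below the control interval, and the CFIm59 KO lines lay below the CFIm68 KO lines. For scale, intron sites took 9.22% of all nuclear reads in control cells, 9.88 and 10.8% in the CFIm59 KO lines and 9.45 and 7.73% in the CFIm68 KO lines. As levels, SLIT2 intron reads were 215 CPM in control cells, 118 and 59.2 CPM in the CFIm59 KO lines and 248 and 113 CPM in the CFIm68 KO lines. SLIT2 last exon reads were 54.9 CPM in control cells, 126 and 90.7 CPM in the CFIm59 KO lines and 111 and 72.8 CPM in the CFIm68 KO lines. The last exon level was thus higher than the control in all 4 lines, while the intron level was lower than the control in 3 of 4.

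Single SLIT2 intron sites did not follow 1 pattern. The most read one, at 20284331, held 107 reads in control cells, 7 and 10 in the CFIm59 KO lines and 139 and 52 in the CFIm68 KO lines. It was lowest in the CFIm59 KO lines, with 40.2 CPM in control cells, 4.20 and 4.14 CPM in those lines, and 48.3 and 23.1 CPM in the CFIm68 KO lines. The site at 20260030, the first of the printed ones in the direction of transcription, held 55 reads in control cells, 9 and 5 in the CFIm59 KO lines and 9 and 6 in the CFIm68 KO lines. Its neighbour at 20262106 held 35 reads in control cells, 7 and 10, and 6 and 5, in the same order. These sites were lower than the control in every knockout line. The next site, at 20263028, held 38 reads in control cells, 3 and 3 in the CFIm59 KO lines and 25 and 18 in the CFIm68 KO lines. A site far downstream, at 20537738, was highest in the CFIm68 KO lines, with 62 and 25 reads against 19 in control cells and 1 and 0 in the CFIm59 KO lines. The site at 20297901 differed less, with 43 reads in control cells, 23 and 17 in the CFIm59 KO lines and 47 and 16 in the CFIm68 KO lines.

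Over the 36 SLIT2 intron sites with 10 or more reads in all, 23 stood below the control in CPM in both CFIm59 KO lines and 4 above it in both. Of all 9393 such intron sites of the table, 32.6% stood below and 40.0% above the control in both of these lines. In both CFIm68 KO lines, 10 of the 36 stood below and 7 above, against 36.3% and 35.5% of all such sites. These sites are those of 1 gene in the same libraries and are not independent of each other. The site use of SLIT2 was among the results known when it was chosen, so these counts are a description. Some sites stood below the control on very few reads. The site at 20384462 did so with 1 read in control cells and 0 and 0 in the CFIm59 KO lines. SLIT2 intron reads were also widely scattered. In the control 112 intron sites had a read, 59 of them with 1 read each, and the 3 most read held 35.9% of intron reads. In the CFIm59 KO lines 83 and 60 intron sites had a read, and the 3 most read held 22.4 and 25.9%. The 203 SLIT2 sites of any class with under 10 reads in all held 114 reads in control cells, 65 and 38 in the CFIm59 KO lines and 185 and 64 in the CFIm68 KO lines. Whether scattered intron reads come from cleavage or from priming at genomic A stretches was not tested.

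The last exon of SLIT2 showed a further difference. Its main site at 20622179 held 114 reads in control cells, 172 and 178 in the CFIm59 KO lines and 178 and 104 in the CFIm68 KO lines. The site 247 nt upstream, at 20621932, held 11 reads in control cells, 18 and 22 in the CFIm59 KO lines and 83 and 38 in the CFIm68 KO lines. The upstream site thus took 8.80% of the pair in control cells (4.98 to 15.1), 9.47 and 11.0% in the CFIm59 KO lines and 31.8 and 26.8% in the CFIm68 KO lines (29.3 ± 3.56%). The next site upstream, at 20621343, held 4 reads in control cells, 1 and 1 in the CFIm59 KO lines and 24 and 9 in the CFIm68 KO lines. Use of upstream last exon sites was high in the CFIm68 KO lines with no overlap, and the CFIm59 KO lines lay within the control interval. Which sites are paired therefore decides what is seen for SLIT2: log2 change of the proximal to distal ratio in the CFIm59 knockout was -4.26 (SE 0.49) with the intron site at 20284331 as proximal and 0.23 (SE 0.58) within the last exon. In the CFIm68 knockout these were -0.54 (SE 0.41) and 2.11 (SE 0.55).

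**Figure D2:**
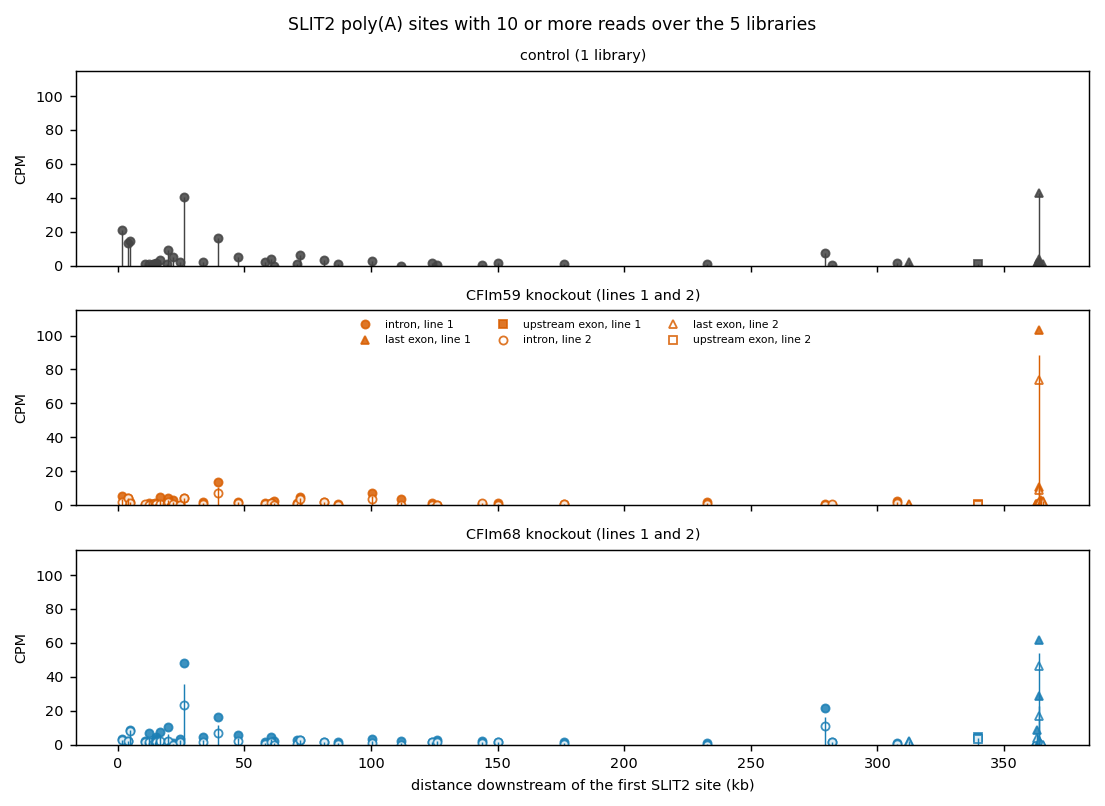
Each SLIT2 site with 10 or more reads over the 5 libraries, by its distance downstream of the first listed SLIT2 site (x axis, kb) and its level in TMM-scaled CPM (y axis, linear); filled symbols are line 1 or the control, open symbols line 2, circles intron, triangles last exon and squares upstream exon sites, and vertical lines reach the group mean. The most read intron sites near the start of the gene were low in the CFIm59 KO lines, where the main last exon site reached 103 and 73.7 CPM against 42.9 CPM in control cells.

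ROBO1, the receptor of SLIT2, differed little between the libraries. It was listed with 147 distinct sites on the minus strand of chromosome 3, from 79808269 down to 78642726, none shared with another gene. Gene sums were 217 reads in control cells, 135 and 166 in the CFIm59 KO lines and 220 and 146 in the CFIm68 KO lines. In CPM these were 81.6 in control cells, 81.1 and 68.8 in the CFIm59 KO lines and 76.5 and 64.8 in the CFIm68 KO lines. The control was the highest, by less than 1 CPM over the nearest line. The differences in level from the control were log2 -0.13 (SE 0.26) and -0.20 (SE 0.26). The last exon site at 78646389 held most last exon reads, 124 in control cells, 66 and 82 in the CFIm59 KO lines and 107 and 92 in the CFIm68 KO lines.

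Intron sites held 41.0% of ROBO1 reads in control cells (34.7 to 47.7), 47.4 and 48.8% in the CFIm59 KO lines and 43.2 and 34.9% in the CFIm68 KO lines. The most read intron site, at 78873019, held 11 reads in control cells, 10 and 15 in the CFIm59 KO lines and 7 and 10 in the CFIm68 KO lines. Against the last exon site this gave 8.15% in control cells (4.61 to 14.0), 14.3 ± 1.63% over the CFIm59 KO lines and 7.97 ± 2.59% over the CFIm68 KO lines. The log2 change of this ratio in the CFIm59 knockout was 0.92 (SE 0.61). With the most upstream and most downstream ROBO1 sites of 5 or more reads per library on average, it was -0.83 (SE 0.84). These were the sites at 78874038 and 78646389. The 138 ROBO1 sites with under 10 reads in all held 55 reads in control cells, 38 and 51 in the CFIm59 KO lines and 78 and 31 in the CFIm68 KO lines. Of its 8 intron sites with 10 or more reads, 2 stood below and 4 above the control in both CFIm59 KO lines, where SLIT2 had 23 below and 4 above of 36. A difference between these genes was not tested.

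EFNA1 encodes ephrin-A1, and most of its listed reads cannot be assigned to it. It was listed with 3 last exon sites on the plus strand of chromosome 1. The site at 155111329 is listed for SLC50A1, a sugar transporter gene, as well, and its reads stood under EFNA1. It held 228 reads in control cells, 46 and 46 in the CFIm59 KO lines and 125 and 108 in the CFIm68 KO lines. SLC50A1 had 1 read at its other sites in control cells, 0 and 0 in the CFIm59 KO lines and 0 and 2 in the CFIm68 KO lines. The site at 155107332, 3997 nt upstream and listed for EFNA1 alone, held 34 reads in control cells, 33 and 45 in the CFIm59 KO lines and 34 and 20 in the CFIm68 KO lines. The site of EFNA1 alone was at 12.8 CPM in control cells, 19.8 and 18.6 CPM in the CFIm59 KO lines and 11.8 and 8.88 CPM in the CFIm68 KO lines.

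In the CFIm59 KO lines the upstream EFNA1 site was above the control and the shared site below it. The listed gene sum was 98.5 CPM in control cells and 48.0 and 38.5 CPM in the CFIm59 KO lines (log2 -1.20, SE 0.26). Without sites listed under more than 1 gene, an alternative chosen after seeing the data, the difference became log2 0.64 (SE 0.39). In the CFIm68 KO lines the listed sum was 55.6 and 56.8 CPM, log2 -0.81 (SE 0.25), or -0.26 (SE 0.41) without the shared site. The upstream site took 13.0% of the pair in control cells (9.44 to 17.6), 41.8 and 49.5% in the CFIm59 KO lines and 21.4 and 15.6% in the CFIm68 KO lines. This share compares a site of EFNA1 with one that may belong to SLC50A1, and the part of each gene cannot be told apart.

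EFNB2 encodes ephrin-B2, a ligand of EPHB4. Its 19 sites lie on the minus strand of chromosome 13, none shared. They held 17 reads in control cells (exact Poisson 95% interval 9.90 to 27.2), 20 and 60 in the CFIm59 KO lines and 15 and 13 in the CFIm68 KO lines. The level was 6.39 CPM in control cells, 12.0 and 24.9 CPM in the CFIm59 KO lines and 5.21 and 5.77 CPM in the CFIm68 KO lines. Both CFIm59 KO lines were above the control and the CFIm68 KO lines just below it. The ratio to the control was 1.88 in CFIm59 KO line 1 (counting interval 0.935 to 3.82) and 3.89 in line 2 (2.24 to 7.11). The fitted difference was log2 1.56 (SE 0.47), or 0.91 without line 2. In the CFIm68 knockout it was log2 -0.22 (SE 0.53). Over the 198 genes of chromosome 13 with a mean of 20 or more reads, the median difference from the control was log2 0.01 and -0.07 in the CFIm59 KO lines and -0.35 and -0.51 in the CFIm68 KO lines.

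The most read EFNB2 site was in the last exon, at 107142097, with 5 reads in control cells, 10 and 35 in the CFIm59 KO lines and 4 and 5 in the CFIm68 KO lines. An intron site at 107165869 held 4 reads in control cells, 1 and 4 in the CFIm59 KO lines and 3 and 2 in the CFIm68 KO lines. These counts were too low for a comparison of site use.

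EPHA7, an Eph receptor that binds mainly A-type ephrins, showed the largest difference in site use among the 6 members with a pair of sites. The table gives it 41 distinct sites on the minus strand of chromosome 6, none shared, and intron sites held only 8.33% of its reads in control cells. Within the last exon, the upstream site at 93952780 held 17 reads in control cells, 6 and 7 in the CFIm59 KO lines and 65 and 45 in the CFIm68 KO lines. The downstream site at 93949745, 3035 nt further on, held 42 reads in control cells, 59 and 66 in the CFIm59 KO lines and 3 and 1 in the CFIm68 KO lines. The 3 groups did not overlap at either site. Proximal use was 28.8% in control cells (18.8 to 41.4), 9.41 ± 0.253% over the CFIm59 KO lines and 96.7 ± 1.58% over the CFIm68 KO lines. The log2 change of the proximal to distal ratio was -1.95 (SE 0.66) over the CFIm59 KO lines and 6.0 (SE 0.71) over the CFIm68 KO lines, or 6.64 without CFIm68 KO line 1.

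The EPHA7 sites between these with most reads were highest in the CFIm59 KO lines, as the downstream one was. The site at 93950583 held 2 reads in control cells, 23 and 18 in the CFIm59 KO lines and 2 and 0 in the CFIm68 KO lines. The site at 93951140 held 6 reads in control cells, 10 and 11, and 5 and 1, in the same order. A site far upstream, at 94119372, is listed as last exon too and held 4 reads in control cells, 4 and 3, and 1 and 3. The gene sum was 84 reads in control cells, 121 and 130 in the CFIm59 KO lines and 84 and 63 in the CFIm68 KO lines. In CPM it was 31.6 in control cells, 72.6 and 53.9 in the CFIm59 KO lines and 29.2 and 28.0 in the CFIm68 KO lines. The CFIm59 KO lines stood above all others, at log2 0.99 (SE 0.30) against the control, and the CFIm68 KO lines stood near the control, at log2 -0.14 (SE 0.30). The near loss of the downstream site in the CFIm68 knockout thus went with a gene sum close to the control.

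EPHB4, the receptor of ephrin-B2, showed no separation of the groups in its gene sum. Its 7 sites lie on the minus strand of chromosome 7, none shared. Gene sums were 78 reads in control cells, 72 and 75 in the CFIm59 KO lines and 83 and 79 in the CFIm68 KO lines. In CPM these were 29.3 in control cells, 43.2 and 31.1 in the CFIm59 KO lines and 28.8 and 35.1 in the CFIm68 KO lines, so the groups overlapped. The differences from the control were log2 0.32 (SE 0.31) and 0.12 (SE 0.31). The site at 100400186 held 76 reads in control cells, 67 and 71 in the CFIm59 KO lines and 70 and 71 in the CFIm68 KO lines. The site 358 nt upstream, at 100400544, held 2 reads in control cells, 5 and 3, and 10 and 7. Proximal use was 2.56% in control cells (0.706 to 8.88), 5.50 ± 2.04% over the CFIm59 KO lines and 10.7 ± 2.49% over the CFIm68 KO lines. The CFIm68 KO lines stood at 12.5 and 8.97%, on 10 and 7 reads. Both lay above the upper end of the control interval, line 2 only barely. The log2 change of the ratio was 1.07 (SE 1.07) over the CFIm59 KO lines and 2.11 (SE 0.95) over the CFIm68 KO lines.

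**Figure D3:**
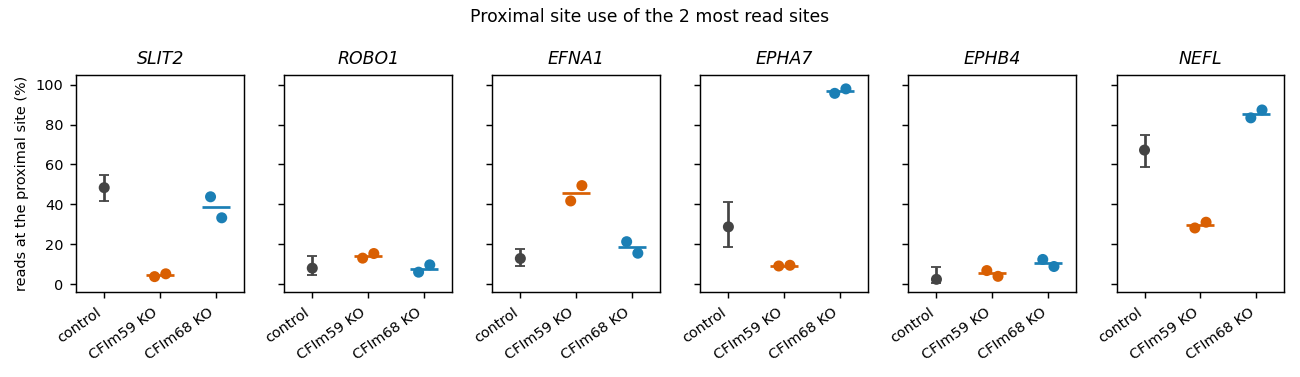
Reads at the upstream of the 2 most read sites, as a percentage of both (y axis), for the 6 genes with enough reads; points are libraries, the bar on the control is its Wilson 95% interval and horizontal lines are means of 2 lines. EPHA7 and NEFL stood lower than the control in the CFIm59 knockout and higher in the CFIm68 knockout, SLIT2 stood low in the CFIm59 knockout, and the downstream site of EFNA1 is shared with SLC50A1.

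GAP43 had hardly any reads in the control and most in the CFIm59 KO lines. It has 4 listed sites on the plus strand of chromosome 3, none shared, with 3 reads in control cells (exact Poisson interval 0.619 to 8.77), 17 and 50 in the CFIm59 KO lines and 9 and 15 in the CFIm68 KO lines. The level was 1.13 CPM in control cells, 10.2 and 20.7 CPM in the CFIm59 KO lines and 3.13 and 6.66 CPM in the CFIm68 KO lines. The groups did not overlap, with the control lowest and the CFIm59 KO lines highest. The ratio to the control was 9.05 (counting interval 2.62 to 48.2) and 18.4 (5.93 to 92.0) in the CFIm59 KO lines. It was 2.77 (0.692 to 15.9) and 5.90 (1.67 to 31.8) in the CFIm68 KO lines. The first of these includes a ratio of 1, so a difference of CFIm68 KO line 1 from the control was not detectable at this depth. The site at 115440268 held all 3 control reads. A site 60 nt downstream, at 115440328, held 0 reads in control cells, 5 and 14 in the CFIm59 KO lines and 0 and 7 in the CFIm68 KO lines.

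NEFL differed in both its level and its poly(A) site. It was listed with 6 sites on the minus strand of chromosome 8, 5 of them in the last exon and none shared. Gene sums were 134 reads in control cells, 135 and 214 in the CFIm59 KO lines and 69 and 62 in the CFIm68 KO lines. In CPM these were 50.4 in control cells, 81.1 and 88.6 in the CFIm59 KO lines and 24.0 and 27.5 in the CFIm68 KO lines. The groups did not overlap, with the control between the knockouts. The differences from the control were log2 0.75 (SE 0.27) over the CFIm59 KO lines and -0.97 (SE 0.28) over the CFIm68 KO lines.

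In the CFIm59 KO lines only the downstream of the 2 main NEFL sites was above the control, and in the CFIm68 KO lines both were below it. At 24808470 there were 41 reads in control cells, 94 and 135 in the CFIm59 KO lines and 10 and 7 in the CFIm68 KO lines, or 15.4 CPM, 56.4 and 55.9 CPM, and 3.48 and 3.11 CPM. At the upstream site, 24809888, there were 84 reads in control cells, 37 and 61 in the CFIm59 KO lines and 50 and 48 in the CFIm68 KO lines, or 31.6 CPM, 22.2 and 25.3 CPM, and 17.4 and 21.3 CPM. The upstream site was thus below the control in all 4 lines, and the downstream site was above it in one genotype and below it in the other. Proximal use was 67.2% in control cells (58.6 to 74.8), 29.7 ± 2.04% over the CFIm59 KO lines and 85.3 ± 2.79% over the CFIm68 KO lines. The log2 change of the ratio was -2.26 (SE 0.43) and 1.48 (SE 0.54). A site between them, at 24808941, held 1 read in control cells, 3 and 15 in the CFIm59 KO lines and 2 and 2 in the CFIm68 KO lines.

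**Figure D4:**
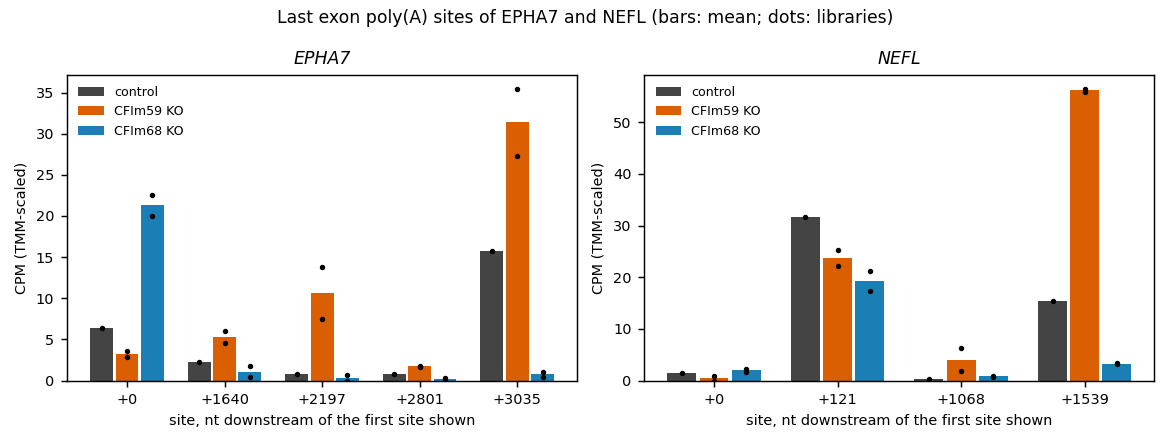
Levels in TMM-scaled CPM (y axis, from 0) at the last exon sites of EPHA7 and NEFL with 10 or more reads, ordered along the transcript by nucleotides downstream of the first site shown; bars are means of 1 control library or 2 lines, and dots are libraries. The last EPHA7 site stood at 15.8 CPM in the control and at 1.04 and 0.444 CPM in the CFIm68 KO lines, and the last NEFL site was highest in the CFIm59 knockout.

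These genes were then set beside 102 genes of axon guidance, neurofilaments and growth cones, the 8 included. The list too was chosen with earlier results of these data known. Its counts, medians and p-values, also those outside the members, are therefore a description and no independent support. The list has 10 genes of Slit, Robo and their GTPase-activating partners, 14 Eph receptors, 8 ephrins, 13 netrins and their receptors, 31 semaphorins, plexins and neuropilins and 26 neurofilament and growth cone genes. Of these, 101 were in the table and 80 had enough reads for a test of expression. In the CFIm59 knockout, 12 were higher than the control and 5 lower (edgeR's quasi-likelihood test, Benjamini-Hochberg over all genes), of which 9 and 4 were outside the 8 members. Of all 14636 tested genes, 6.98% were higher and 6.87% lower. The list's median difference was log2 0.27, also with the genes at 0 reads in the control set to their bound, and 0.22 outside the members, against 0.02 over all genes. At an unadjusted p under 0.05, 22 list genes were higher and 8 lower, against 13.9% and 13.4% of all genes. DESeq2 called 4 higher and 1 lower of 75 list genes with an adjusted p, against 1.85% and 2.44% of all genes. By edgeR's adjusted p, the neurofilament and growth cone genes gave 7 higher and 2 lower of 19, ephrins 1 and 3 of 8, Eph receptors 2 and 0 of 11, Slit and Robo genes 1 and 0 of 8, semaphorins and plexins 1 and 0 of 26, and netrins 0 and 0 of 8. Outside the members the first 4 of these were 6 and 2 of 17, 0 and 2 of 6, 1 and 0 of 9, and 1 and 0 of 6. Semaphorins, plexins and netrins hold no member. The members called were GAP43, EFNB2 and EPHA7, higher, and EFNA1, lower with its shared site. At an unadjusted p under 0.05 the neurofilament and growth cone genes gave 8 higher and 3 lower, ephrins 2 and 4, Eph receptors 2 and 0, Slit and Robo genes 1 and 1, semaphorins and plexins 6 and 0, and netrins 3 and 0. With DESeq2 the neurofilament and growth cone genes gave 4 and 0, ephrins 0 and 1, and the other 4 groups 0 and 0.

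DPYSL3, a collapsin response mediator protein of growing axons, had 0 reads in control cells, 93 and 157 in the CFIm59 KO lines and 1 and 1 in the CFIm68 KO lines. At 60.4 ± 6.51 CPM it was at least 53.6-fold higher in the CFIm59 knockout than a floor of 3 reads in the control library (edgeR adjusted p = 5.1e-13). BASP1, a growth cone membrane protein like GAP43, rose from 3.01 CPM to 72.5 ± 8.24 CPM (log2 4.57, SE 0.46, edgeR adjusted p = 8.38e-11). Its level in the CFIm68 KO lines was 6.29 ± 3.88 CPM. DPYSL2, another collapsin response mediator, rose by log2 1.18 (adjusted p = 0.00353, or 0.0769 without CFIm59 KO line 2). STMN3, a stathmin that acts on microtubules, rose by log2 1.13 (adjusted p = 0.00458). Among the ephrins, EFNA4 fell from 23.7 CPM to 4.70 ± 1.55 CPM (log2 -2.27, adjusted p = 0.000149). EFNB1 fell from 42.1 CPM to 19.2 ± 0.829 CPM (adjusted p = 0.0114, or 0.0748 without CFIm59 KO line 2). The calls of DPYSL3 and BASP1 held under all 9 alternatives, and those of DPYSL2, STMN3, EFNA4 and EFNB1 ended with DESeq2 (adjusted p of 0.0869, 0.105, 0.0612 and 0.355).

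In the CFIm68 knockout, 0 of the 80 were higher than the control and 2 lower, EFNB1 and NEFL. Outside the members these were 0 and 1 of 72. Of all tested genes, 1.59% were higher and 2.03% lower. At an unadjusted p under 0.05 there were 9 and 9, against 8.6% and 8.64% of all genes. DESeq2 gave an adjusted p to only 2 list genes here, neither of them EFNB1, and called 0 and 0, against 0.546% and 5.02% of the 1831 genes with one. EFNB1 fell to 7.30 ± 0.981 CPM (log2 -2.53, SE 0.35, edgeR adjusted p = 2.64e-06). The median difference of the list was log2 0.06, and 0.07 outside the members, against 0.02 over all genes. With the genes at 0 reads in the control set to their bound, the list median was 0.04. Between the knockouts, 4 were higher in the CFIm68 knockout and 19 lower, of which 4 and 15 were outside the 8 members, against 9.46% and 10.3% of all genes. The median was log2 -0.15, and -0.14 outside the members, against 0.00 over all genes. At an unadjusted p under 0.05 there were 9 and 23, against 15.7% and 16.0% of all genes. With DESeq2, 1 was higher and 7 lower of 82, against 2.7% and 3.56% of all genes. Higher in the CFIm68 knockout were CNTN1, an axonal adhesion molecule (log2 1.69, adjusted p = 0.0001), NEFM, the medium neurofilament subunit (log2 1.68, adjusted p = 2.57e-05), EFNA4 and CRMP1. The call of EFNA4 (log2 1.29, adjusted p = 0.0201) ended without CFIm59 KO line 1 (0.17), without CFIm68 KO line 2 (0.0741) and with DESeq2 (0.321), and CRMP1 had 1 to 19 reads a library. NEFM stood at 37.2 CPM in control cells, 8.41 and 38.5 CPM in the CFIm59 KO lines and 65.3 and 95.0 CPM in the CFIm68 KO lines. It thus ran opposite to NEFL between the knockouts, although its CFIm59 KO lines lay far apart (log2 1.03 without line 1 and 3.24 without line 2) and its call ended with DESeq2 (adjusted p = 0.393). Lower in the CFIm68 knockout were DPYSL3, BASP1 (log2 -3.46, or -4.34 without CFIm68 KO line 1), MARCKS (log2 -1.47, adjusted p = 1.32e-07) and EFNB1 (log2 -1.40, adjusted p = 0.00172, or 0.0945 with DESeq2), with GAP43, EFNB2, EPHA7 and NEFL. The comparisons with the control share that 1 library.

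For site use, 26 of the 102 genes had a pair of sites with enough reads. Against the control the CFIm59 knockout gave 1 gene to the proximal site, EFNA1 with its shared site, and 3 to the distal site, SLIT2, PLXNA3 and NEFL. Outside the members these were 0 and 1 of 20. Of all 5869 tested genes, 1.02% changed to proximal and 5.38% to distal. There were 1 and 5 at an unadjusted p under 0.05, against 3.99% and 15.9% of all genes. DESeq2 called 1 and 1 of 8 list genes with an adjusted p, against 0.384% and 0.939% of all genes with one; PLXNA3 had none. PLXNA3, a semaphorin receptor, fell from 97.0% proximal use (89.8 to 99.2) to 72.3 ± 7.17% (log2 -3.62, edgeR adjusted p = 0.00634, or 0.115 without CFIm59 KO line 2). The list's median was log2 -0.08, with and without the members, against -0.34 over all genes. This median includes DPYSL3, which had 0 reads at both sites of its pair in control cells. Its change from the control is therefore undefined, and no difference of the list from all genes is read from the median. In the CFIm68 knockout 8 changed to proximal and 0 to distal, EPHA7 and NEFL among the 8, or 6 and 0 of 20 outside the members, against 25.3% and 3.14% of all genes. At an unadjusted p under 0.05 there were 10 and 0, against 32.2% and 5.15%, and DESeq2 called 4 and 0, against 13.6% and 0.852%. The median was log2 1.22, with and without the members, against 0.61, and it too includes the undefined change of DPYSL3.

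The largest of these changes outside the 8 members was in NEO1, the netrin receptor neogenin, whose proximal use rose from 33.3% (23.7 to 44.6) to 95.3 ± 4.07% in the CFIm68 knockout (log2 5.21, SE 0.66, edgeR adjusted p = 3.61e-09), or log2 6.60 without CFIm68 KO line 1 and 4.57 without line 2. EPHA4, an Eph receptor like EPHA7, rose from 14.6% (7.25 to 27.2) to 60.8 ± 8.25% (log2 3.22, adjusted p = 0.00113). NRP1, a semaphorin co-receptor, rose from 39.5% to 78.6 ± 2.39% (adjusted p = 0.00202), and NRCAM, an axonal adhesion molecule, from 42.4% to 79.8 ± 6.80% (adjusted p = 0.0471, or 0.229 without CFIm68 KO line 1, 0.0718 without line 2 and 0.205 with DESeq2). The call of EPHA4 ended with its most upstream and most downstream sites of 5 or more reads per library on average. The edgeR adjusted p was then 0.111, and 0.121 between the knockouts. Between the knockouts 10 genes were more proximal in the CFIm68 knockout and 2 more distal, or 7 and 1 of 20 outside the members, against 40.7% and 6.2% of all genes. The median was log2 1.00, or 0.89 outside the members, against 0.89 over all genes. There were 11 and 2 at an unadjusted p under 0.05, against 44.5% and 7.57%, and DESeq2 called 10 and 1, against 30.8% and 3.37%. The 10 held EPHA7, NEFL and SLIT2, with NEO1 at log2 6.16, EPHA4 at 4.44, SRGAP2 at 3.68 and DPYSL2 at 2.91. NEO1 was at 7.55 without CFIm68 KO line 1 and 5.52 without line 2. Without CFIm59 KO line 1 and line 2 in turn, EPHA4 was at 8.56 and 3.43 and DPYSL2 at 3.71 and 2.03. The call of SRGAP2 ended with its most upstream and most downstream sites of that same read minimum (adjusted p = 0.0563). The 2 were EFNA1 and MARCKS, the latter at log2 -0.82 (adjusted p = 0.0257). MARCKS lost the call with DESeq2 (0.15), and also without either CFIm59 KO line or CFIm68 KO line 2. With its site at 114184646 as the distal one, its direction turned. That site held 62 reads in control cells, 186 and 196 in the CFIm59 KO lines and 2 and 1 in the CFIm68 KO lines. Proximal use in that pair was 46.9 ± 8.36% over the CFIm59 KO lines and 97.8 ± 0.813% over the CFIm68 KO lines.

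As a description of the gene sums, the genes with the closest pattern over the 5 libraries were looked up among 7369 genes with a mean of 50 or more reads, by the root mean square difference of centred log2 CPM. Closest to SLIT2 were YPEL5 (0.06) and DNAJB9 (0.08), and closest to ROBO1 were PTPMT1 and POGZ (0.03 each). EPHA7 was closest to TMEM185B and MAP3K5 (0.06 each), EPHB4 to NUDCD3 and POLG2 (0.04 each), EFNA1, with its shared site, to IDH2 (0.06) and ASNS (0.09), and NEFL to PCID2 (0.10) and EBF3 (0.11). These likenesses rest on 5 points each. EFNB2 and GAP43 had too few reads for this.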

How the data were processed

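The authors deposited raw read counts per poly(A) site, 1 column per library and 0 columns of other samples; hg19, TopHat2 2.1.0 and deepTools 2.4 are named, without roles, per the submitters' processing notes. The sources used here do not give how sites were called or internal priming was handled. RNA (10 µg) was fragmented for 10 min, and oligo(dT)-primed cDNA of 120 to 200 nt was selected, per the labels' protocols. The 290072 entries are 272248 distinct sites; the 17824 repeated listings held 0 reads. Whether positions count from 0 or 1 is not stated.

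Reads were summed per gene, filtered (filterByExpr), TMM-scaled and fitted with edgeR 4.0.16 (R 4.3.3), quasi-likelihood test, all 5 libraries, 2-sided, Benjamini-Hochberg, threshold 0.05. The lone control is assumed to vary like the lines, and p-values measure the spread between lines of 1 genotype. Site use took the 2 most read sites per gene (20 or more reads together and 5 each, per library on average), with a term per library; positive log2 is toward the upstream (proximal) site. SEs are from these fits, and intervals of ratios to the control are exact (Clopper-Pearson on the summed reads of both libraries). Both fits were also run on simulated counts. These gave the control the same spread as the lines, so that assumption was not tested. Sites with 10 or more reads are printed singly. Alternatives were RLE scaling, DESeq2 1.42.0, other filters and site pairs, and leaving out lines. The most upstream and most downstream sites were taken among those with 5 or more reads per library on average. Members and lists were chosen with earlier results of these data known. From the lists, up to 4 genes each way with 20 or more reads on average were named per comparison, and CRMP1 was named after its value was seen. No sequence is shown, since no hg19 genome was used here.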

Additional observations from a re-analysis of the deposited data

Results flagged for a closer look

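Between the knockouts, 4 of 8 of these genes were called for gene sums and 4 of 6 for site use. The calls are those of edgeR's quasi-likelihood test of the CFIm68 knockout against the CFIm59 knockout. Of all genes tested, 9.46% were higher and 10.3% lower in the CFIm68 knockout, and 40.7% were more proximal and 6.2% more distal. The genes were chosen with this comparison known, so these calls are a description and no independent support, and nothing is read from them. In gene sums, the log2 difference was -1.13 for EPHA7, -1.79 for EFNB2, -1.74 for GAP43 and -1.73 for NEFL, all lower in the CFIm68 knockout. Without CFIm59 KO line 2 it was -1.13 for EFNB2 and -1.10 for GAP43, and without CFIm68 KO line 1 or line 2 it was -1.26 or -2.33 for GAP43. In the proximal to distal ratio it was 3.71 for SLIT2, 7.95 for EPHA7 and 3.74 for NEFL, all more proximal in the CFIm68 knockout. For EPHA7 it was 8.58 without CFIm68 KO line 1. For EFNA1 it was -1.87, between its own site and the one shared with SLC50A1. With the most upstream and most downstream SLIT2 sites, at 20260030 and 20622179, the SLIT2 difference was 0.42.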

How the results depend on the processing

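Leaving out 1 knockout line gave 12 to 20 called list genes for expression in the CFIm59 knockout (17 with all lines), 2 to 3 in the CFIm68 knockout (2) and 16 to 20 between the knockouts (23); for site use it gave 3 to 5 (4), 6 to 8 (8) and 10 to 12 (12). With DESeq2 the expression counts were 5, 0 and 8, and the site use counts against the control 2 and 4; it gave an adjusted p to only 2 list genes for expression in the CFIm68 knockout and 8 for site use in the CFIm59 knockout. With no filter beyond 1 read, 4 list genes were called for expression in the CFIm68 knockout. A stricter minimum (100 reads per pair and 20 per site, on average) left 5 list genes for site use, of which 1 was called in the CFIm68 knockout and 4 between the knockouts. The other list counts were within 1.5 times. Of 391 recomputed member differences, 365 moved by at most 1 SE, and 14 turned to the other sign. Of these 14, 2 had passed the threshold before. SLIT2 site use in the CFIm59 knockout went to 0.23 with last exon sites only, where another pair is measured. EFNA1 expression there went to 0.64 without the shared site. With the cell line number as a replicate block over the 4 knockout libraries, 24 list genes were called for expression and 12 for site use between the knockouts, against 21 and 12 in the same libraries without the block, a fit added after seeing the data. The numbers share no source in the labels; same-numbered lines deviated together at a correlation of 0.0068 in expression and 0.0317 in site use, across genes. Each difference from the control rests on 1 library, and counts of 20 or fewer reads, as in GAP43 and EFNB2, limit what can be seen.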
